A study of Mus musculus with 12 samples.

Results

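The glial connexins and pannexins are 7 genes, Gja1, Gjb6, Gjb2, Gjb1, Gjc3, Panx1 and Panx2, taken by gene symbol from a table of 56941 gene models with 56791 distinct names. Each had 1 entry in the table. Messenger RNA was sequenced in cells of the mouse hippocampus sorted by fluorescence for ACSA-2, an astrocyte surface antigen, and 12 libraries were read, 6 per genotype. All mice were adult, male and naive. The controls, labelled Ctrl, were Tnfrsf1b fl/fl, so both groups carried floxed alleles of the gene for tumour necrosis factor receptor type II (TNFR2). The other group, labelled cKO, also carried GfapcreERT2, a Cre recombinase that tamoxifen activates and the Gfap promoter drives, which limits recombination to cells in which that promoter is active. The comparison asks how ablation of TNFR2 in astrocytes bears on their RNA. The labels give no tamoxifen schedule for either group, and Cre-positive mice without floxed alleles were not analysed here. The labels number the samples A1, A2 and A8 for Ctrl and A4, A9 and A10 for cKO. Each has an S1 library, marked rep1, and an S2 library, marked rep2. They do not say what A and S stand for or what kind of replicate is meant. The paired libraries were averaged into 1 unit per A number, which left 3 units against 3.

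Connexins are membrane proteins that assemble into hemichannels, and hemichannels of adjacent cells dock to form gap junctions through which ions and small metabolites pass from cell to cell. Hippocampal astrocytes are joined into a network mainly by the products of Gja1 and Gjb6, while oligodendrocytes, the myelinating cells, make Gjb1 and Gjc3 among others and couple to astrocytes through junctions that pair a connexin of each cell type. Pannexins are distant relatives that form channels in a single membrane and are known as routes of ATP release.

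The depth recovered from the deposited values was between 17311872 and 31499016 reads in the Ctrl libraries and between 17451195 and 35323322 in the cKO libraries. Tnfrsf1b was listed at 0 in 5 of 6 Ctrl and 4 of 6 cKO libraries, with a highest value of 0.0551 in Ctrl and 0.163 in cKO, in fragments per kilobase and per 1000000 reads (FPKM), so it gives no check of the genotype labels, and Ctrl and cKO below mean the groups as labelled. The 12 astrocyte markers were present in every unit and summed to between 3915 and 4811 FPKM in Ctrl and between 4674 and 5301 in cKO. The 12 oligodendrocyte markers were present too, with sums of 1096 to 2354 FPKM in Ctrl and 313 to 753 in cKO. In sorted bulk RNA, fewer cells of a type and less RNA per cell cannot be told apart.

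The promoters of the members with the largest astrocyte and oligodendrocyte signals are shown because SOX10, a transcription factor of the oligodendrocyte lineage, is known to act on Gjb1. The sequences are the 250 bases before an annotated start, from RefSeq on GRCm38.p6, written in the direction of transcription. Capitals mark ACAAAG, the core of a SOX site, searched on both strands. 6 of the 7 members had an entry, and Panx2 had none. The longest exact stretch shared by GENCODE M21 transcripts of any pair of members was 37 bases, between Gja1 and Gjc3, against sequencing reads of 125 bases.
Gja1, chr10:56377050-56377299, plus strand: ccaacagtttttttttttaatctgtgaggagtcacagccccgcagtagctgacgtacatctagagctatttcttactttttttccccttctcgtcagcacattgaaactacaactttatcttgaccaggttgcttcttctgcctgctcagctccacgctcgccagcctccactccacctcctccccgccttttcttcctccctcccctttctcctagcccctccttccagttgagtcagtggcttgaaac
Gjb6, chr14:57133612-57133861, minus strand: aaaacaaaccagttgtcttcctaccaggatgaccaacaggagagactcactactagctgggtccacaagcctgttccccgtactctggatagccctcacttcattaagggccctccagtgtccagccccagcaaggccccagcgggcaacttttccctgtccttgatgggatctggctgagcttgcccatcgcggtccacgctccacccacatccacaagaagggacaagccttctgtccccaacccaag
Gjc3, chr5:137963099-137963348, minus strand: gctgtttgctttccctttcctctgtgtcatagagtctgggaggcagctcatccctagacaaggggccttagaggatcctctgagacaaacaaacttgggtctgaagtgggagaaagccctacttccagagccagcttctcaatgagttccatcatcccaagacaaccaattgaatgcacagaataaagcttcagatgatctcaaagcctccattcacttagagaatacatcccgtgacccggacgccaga
Gjb1, start 1, chrX:101376126-101376375, plus strand: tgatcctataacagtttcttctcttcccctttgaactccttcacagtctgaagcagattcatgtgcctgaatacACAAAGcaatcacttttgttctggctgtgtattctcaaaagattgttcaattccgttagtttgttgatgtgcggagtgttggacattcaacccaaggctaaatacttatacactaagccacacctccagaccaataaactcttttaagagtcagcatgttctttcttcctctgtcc
Gjb1, start 4, chrX:101383482-101383731, plus strand: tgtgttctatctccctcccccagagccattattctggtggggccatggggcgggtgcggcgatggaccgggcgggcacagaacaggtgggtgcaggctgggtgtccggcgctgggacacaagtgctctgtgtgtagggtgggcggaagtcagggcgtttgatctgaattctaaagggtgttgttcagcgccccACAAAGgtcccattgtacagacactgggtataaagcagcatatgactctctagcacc

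Of the 9 windows of the 6 members, ACAAAG stood in 2, both of Gjb1 and both in the printed direction. Its first base lay 176 bases before start 1 and 57 bases before start 4 of that gene. Among all 32851 windows of this length, 16.5% held the motif. The windows of Gja1, Gjb6, Gjb2, Gjc3 and Panx1 and those of starts 2 and 3 of Gjb1 did not hold these letters. The NFI site TTGGC, bound by factors that act in astrocyte development, stood in the Gjb2 window and that of Gjb1 start 2, against 41.5% of all windows. The GC box GGGCGG occurred 2 times in the Gjb2 window and 3 times in that of Gjb1 start 4, against 32.7% of windows with at least 1. Bases G and C made up 69.2% of the Gjb2 window, 56.8% of that of Gjb6, 50.0% of that of Gja1 and 48.8% of that of Gjc3. These matches describe letters in the windows and were not tied to expression.

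Gja1, which encodes the main astrocyte connexin, was the most abundant of the 7 in all 6 units. The gene, ENSMUSG00000050953, is listed in the deposited table on chromosome 10 at 56253426 to 56278609, plus strand, in a genome build that the table does not name. Its unit values were 242, 251 and 293 FPKM in A1, A2 and A8 of Ctrl and 298, 370 and 299 FPKM in A4, A9 and A10 of cKO. Every cKO unit lay above every Ctrl unit, although A8 and A4 were close. The means were 262 ± 27.3 FPKM for Ctrl and 322 ± 41.0 for cKO (SD over 3 units each), a ratio of 1.23. The log2 fold change on the log2(FPKM + 1) scale was 0.29 with a standard error of 0.14 and did not pass the threshold (limma, Benjamini-Hochberg adjusted p = 0.693). It was 0.19 without A9. No gene of the 17540 with a mean of at least 1 FPKM passed an adjusted p of 0.05 for genotype (0.0%), and the smallest adjusted p of any gene was 0.136.

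Gjb6, whose product shares astrocyte junctions with that of Gja1, came second in every unit. It is ENSMUSG00000040055, listed on chromosome 14 at 57360760 to 57371068, minus strand. The Ctrl units held 132, 132 and 206 FPKM and the cKO units 165, 208 and 177 FPKM. The groups overlapped, because A8 of Ctrl was nearly as high as A9 of cKO while A1 and A2 were the lowest of the 6. Means were 156 ± 42.8 FPKM for Ctrl and 184 ± 22.2 FPKM for cKO (SD over 3 units each), and the log2 fold change was 0.25 with a standard error of 0.20 (limma adjusted p = 0.857). It was 0.47 without A8, 0.15 without A1 or A2 and 0.16 without A9. Gja1 exceeded Gjb6 in 12 of 12 libraries, and their ratio lay between 1.42 and 1.91 in Ctrl and between 1.69 and 1.81 in cKO.

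Gjb2 lies next to Gjb6 on the same strand, with 18.6 kb between them, and encodes a connexin found in astrocytes, leptomeninges and the inner ear. It is ENSMUSG00000046352, at 57336057 to 57342159 of chromosome 14 in the deposited table. Its units were 4.78, 10.1 and 9.99 FPKM in Ctrl and 4.80, 12.8 and 11.9 FPKM in cKO. In each genotype 1 unit, A1 of Ctrl and A4 of cKO, held less than the lower of the other units by more than 2-fold. The means of 8.29 ± 3.04 and 9.84 ± 4.39 FPKM (SD, n = 3) differed by less than this spread, with a log2 fold change of 0.19 and a standard error of 0.41 (limma adjusted p = 0.966). That value was -0.13 without A1, -0.04 without A9, 0.01 without A10 and 0.59 without A4, so single units set its size and sign. Gjb6 exceeded its neighbour by 13.0-fold to 34.4-fold in the 6 units, although they are neighbours. Gja3, the next connexin along chromosome 14, which is known for its part in the lens, was listed at 0 in all 12 libraries.

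**Figure D1:**
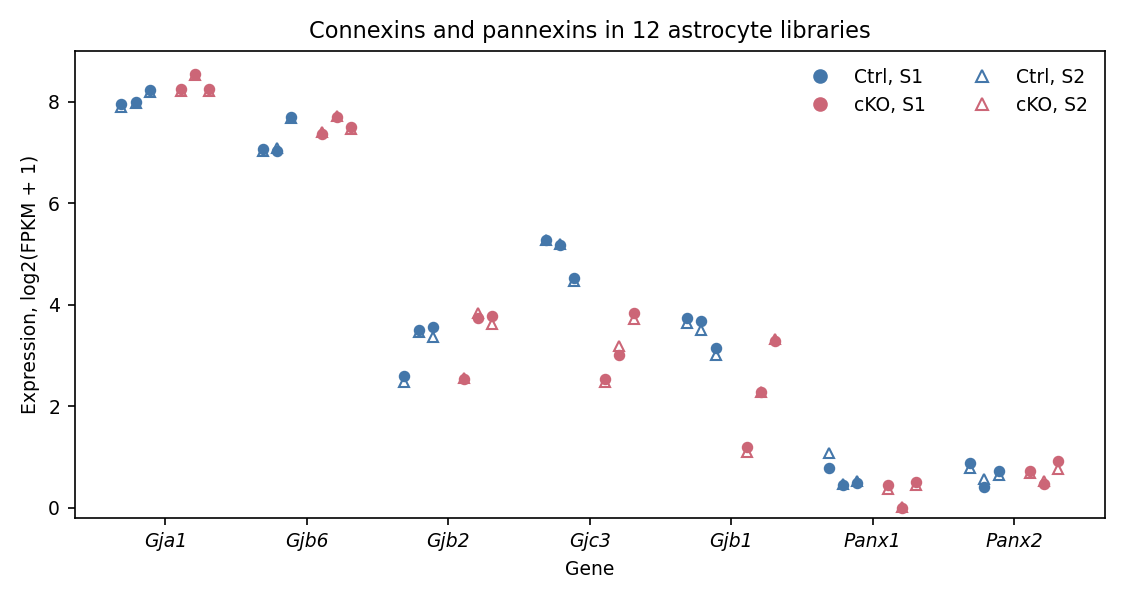
Expression of the 7 members in 12 libraries, as log2(FPKM + 1). Filled circles are S1 and open triangles S2 libraries, blue is Ctrl and red is cKO, and each pair of symbols in 1 column is 1 A number, in the order A1, A2, A8, then A4, A9, A10. Gja1 and Gjb6 sit at the top in every library, Gjc3 of cKO sits below that of Ctrl, and the pannexins sit lowest.

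The connexins of oligodendrocytes had lower means in cKO than in Ctrl, without passing the threshold. Gjc3, which encodes a connexin of myelinating glia, had the largest difference among the members. It is ENSMUSG00000056966, listed on chromosome 5 at 137951723 to 137961360, minus strand. The Ctrl units held 37.6, 35.4 and 21.7 FPKM and the cKO units 4.69, 7.56 and 12.8 FPKM. All 3 cKO units were below all 3 Ctrl units, with A8 the lowest of Ctrl and A10 the highest of cKO. Means were 31.6 ± 8.63 FPKM for Ctrl and 8.34 ± 4.10 FPKM for cKO (SD over 3 units each), 3.78-fold apart. The log2 fold change of -1.86 with a standard error of 0.35 did not pass the threshold over all genes (limma adjusted p = 0.320). Its unadjusted limma p was 0.00123, and 7.69% of all genes tested had an unadjusted p under 0.05.

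In a fit of all 12 libraries that took A numbers as random effects, the Gjc3 difference passed the threshold (limma adjusted p = 0.0196), and with the S number as a replicate block it passed as well (limma adjusted p = 0.0354). Those fits called 112 and 80 genes over all. The log2 fold change was -1.86 in both, with standard errors of 0.29 and 0.30, against 0.35 in the test on averages. Both fits estimate 1 correlation between S1 and S2 for all genes. They count residual degrees of freedom over 12 libraries, although these come from 6 A numbers. The test on averages takes each A number as 1 value and is the one read here.

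Gjb1, a connexin of oligodendrocytes and Schwann cells whose mutations cause an inherited neuropathy, is ENSMUSG00000047797, listed on chromosome X at 100419984 to 100429235, plus strand. Its Ctrl units held 11.9, 11.0 and 7.44 FPKM and its cKO units 1.20, 3.85 and 8.89 FPKM. The groups overlapped through A10, which lay above A8 of Ctrl. The cKO units also differed widely among themselves, with A10 more than 7-fold above A4. Means were 10.1 ± 2.35 FPKM for Ctrl and 4.65 ± 3.91 FPKM for cKO (SD over 3 units each), and the log2 fold change of -1.21 had a standard error of 0.52 (limma adjusted p = 0.650). Without A4 the log2 fold change was -0.66.

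The ratio of Gjc3 to Gjb1 was 3.16, 3.22 and 2.91 in A1, A2 and A8 and 3.90, 1.97 and 1.44 in A4, A9 and A10. Gjc3 was the higher of that pair in 12 of 12 libraries, and the 3 cKO units spread more widely in this ratio than the 3 Ctrl units.

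Set against their background, 5 of the 7 members were tested, 0 passed the adjusted threshold, and 1, Gjc3, had an unadjusted p under 0.05. The units did not overlap between the groups for 2 of the 5, Gja1 higher and Gjc3 lower in cKO. Of all 17540 genes tested, 13.0% did not overlap, 1005 with cKO higher and 1274 with cKO lower. The median log2 fold change of the 5 was 0.19, against -0.01 over all genes tested, and it joins 3 astrocyte connexins between 0.19 and 0.29 with 2 oligodendrocyte connexins at -1.21 and -1.86.

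The mean log2 level of Gjb1 and Gjc3 minus that of Gja1 and Gjb6 compares the connexins of the cell types within each unit. It was -3.01, -3.13 and -4.16 in A1, A2 and A8 and -5.98, -5.44 and -4.31 in A4, A9 and A10. Each cKO unit was below each Ctrl unit, with A8 and A10 nearly level. The group means were -3.43 ± 0.63 and -5.24 ± 0.85 (SD, n = 3), a difference of -1.81, given as a description because the genes were chosen with results known. With the oligodendrocyte marker level as a covariate the difference was 0.29, a value for which no standard error was computed. That fit left 3 residual degrees of freedom, and the marker level did not overlap between the genotypes. Gja1 exceeded Gjc3 by 6.44-fold to 13.5-fold in the Ctrl units and by 23.4-fold to 63.6-fold in the cKO units.

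Together the 20 connexins of the table summed to 439, 453 and 545 FPKM in A1, A2 and A8 and to 479, 607 and 516 FPKM in A4, A9 and A10. Gja1 and Gjb6 together made up 85.1%, 84.5% and 91.5% of the sum in the Ctrl units and 96.9%, 95.3% and 92.3% in the cKO units. The share of Gjc3 was 3.97% to 8.55% in Ctrl and 0.98% to 2.48% in cKO. Gjb1 held 1.36% to 2.71% in Ctrl and 0.251% to 1.72% in cKO, and Gjb2 held 1.09% to 2.23% and 1.0% to 2.31%. In every unit, then, the astrocyte pair made most of the connexin RNA, and the next gene was Gjc3 in 4 of 6 units and Gjb2 in A4 and A9.

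**Figure D2:**
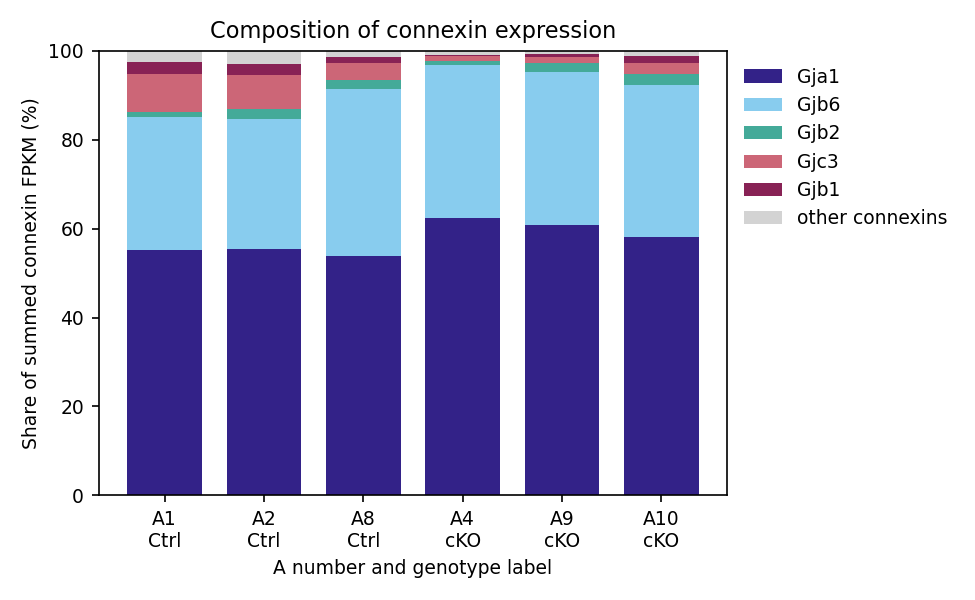
Share of each connexin in the summed FPKM of 20 connexins, in percent, for each A number (S1 and S2 averaged). Gja1 and Gjb6 fill 84.5% to 91.5% of the Ctrl bars and 92.3% to 96.9% of the cKO bars, and the share of Gjc3 reaches 8.55% in A1 and 0.98% in A4.

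Some neighbours in the order of levels could not be separated. In A4 and A10, Gjc3 and Gjb2 were nearly level, with ratios of 0.977 and 1.07. Gjc3 exceeded Gjb2 in 9 of 12 libraries and Gjb1 exceeded Gjb2 in 4 of 12. The positions of Gja1 and Gjb6 were the same in every library.

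The oligodendrocyte markers differed in the same direction as the oligodendrocyte connexins. All 12 markers, Mbp and Mobp among them, were lower in cKO on average, 0 past the adjusted threshold and 12 with an unadjusted p under 0.05 (limma). Their mean log2 level was between 5.57 and 6.63 in the Ctrl units and between 3.90 and 5.20 in the cKO units. Relative to that mean, Gjc3 stood at -1.27, -1.45 and -1.07 in A1, A2 and A8 and at -1.39, -1.23 and -1.42 in A4, A9 and A10. The groups overlapped, and the difference between them was -0.08 on the log2 scale (two-sided exact permutation test over 20 arrangements, p = 0.7). It was 0.01 when A8 was left out, so its sign rested on 1 unit. Gjb1 stood at -2.85, -3.05 and -2.49 in Ctrl and at -2.76, -2.05 and -1.90 in cKO, with overlap, and the difference of 0.57 had p = 0.2 in the same exact test. The 1 FPKM added before the log2 understates the change of low genes such as Gjb1. Its log2 fold change was -1.21 with 1 FPKM added and -1.48 with 0.1 FPKM. The part of this scale in the 0.57 was not tested. 3 units against 3 cannot give a p below 0.1, so these tests could not pass the threshold at any size of difference.

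With the marker level as a covariate in the fit, the log2 fold change of Gjc3 was -0.37 with a standard error of 0.27, against -1.86 without it (limma adjusted p = 0.831 with the covariate). For Gjb1 the value turned to 0.79 with a standard error of 0.58. Gja1 was 0.06 and Gjb6 -0.21, each with a standard error of at least 0.26. The marker levels of the genotypes did not overlap among the 6 units, and with the covariate 3 residual degrees of freedom were left. The part of oligodendrocyte RNA in these differences was not tested beyond these values.

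**Figure D3:**
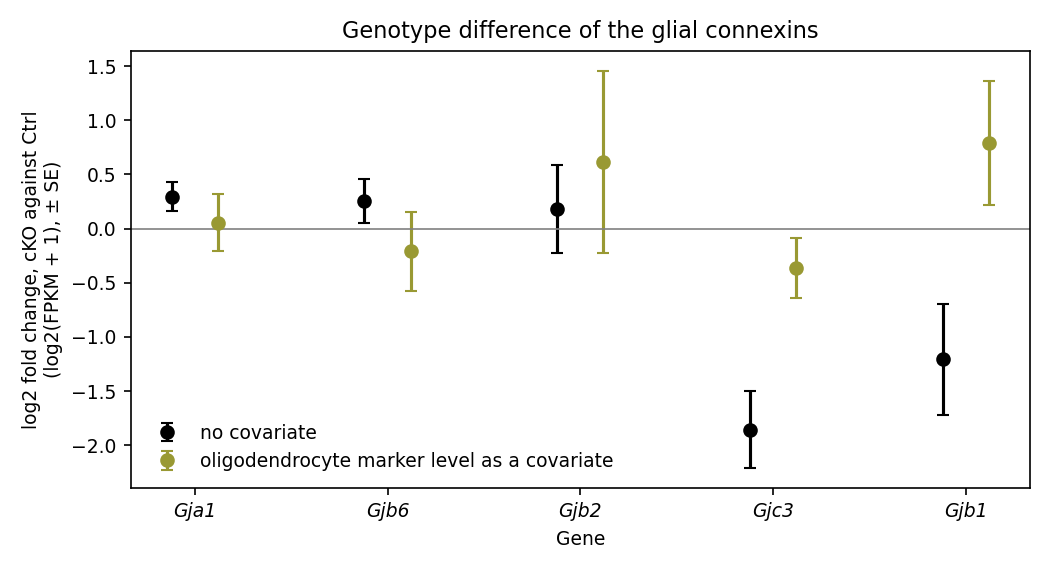
Log2 fold change of cKO against Ctrl for 5 connexins, on the log2(FPKM + 1) scale, with the standard error as bars. Black points come from the fit without a covariate and olive points from the fit with the oligodendrocyte marker level as a covariate. Gjc3 goes from -1.86 to -0.37 and Gjb1 from -1.21 to 0.79, and no point passed the threshold.

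The astrocyte markers differed less. 11 of 12, among them Aldh1l1, Slc1a2 and Slc1a3, were higher on average in cKO and 1 was lower, 0 past the adjusted threshold and 0 with an unadjusted p under 0.05 (limma), and their mean log2 level was 7.61 to 7.85 in Ctrl and 7.90 to 7.99 in cKO. Relative to that mean, Gja1 differed between the groups by 0.10, Gjb6 by 0.06 and Gjb2 by -0.01 on the log2 scale. Other lists also differed between units, and no marker was at 0 in every library. The mean log2 level of 7 oligodendrocyte precursor markers was 2.43 to 3.14 in Ctrl and 2.20 to 2.55 in cKO. In this list Olig1, Olig2 and Sox10 averaged 69.5, 29.0 and 17.0 FPKM over all libraries. Pdgfra, Cspg4, C1ql1 and Gpr17 averaged 0.69, 1.98, 0.29 and 1.06 FPKM. By genotype, Olig1, Olig2 and Sox10 averaged 83.2, 30.3 and 26.8 FPKM in Ctrl and 55.8, 27.6 and 7.17 FPKM in cKO. Units of the groups did not overlap for Olig1 and Sox10, as for 13.0% of all genes tested, and overlapped for Olig2. None of these passed the adjusted threshold. With a factor of the whole lineage such as Sox10 in the list, its mean level is not particular to precursors. The mean log2 level of 8 microglial markers was 0.81 to 1.0 in Ctrl and 1.04 to 1.79 in cKO. The 6 endothelial markers lay at 0.66 to 2.94 and 0.81 to 2.56, the 6 mural markers at 2.85 to 3.43 and 3.19 to 3.73, and the 6 leptomeningeal markers at 0.87 to 1.23 and 0.77 to 1.96. The 5 ependymal markers lay at 3.53 to 5.49 and 3.24 to 4.95, the 4 choroid plexus markers at 1.66 to 2.60 and 0.86 to 4.25, and the 6 neuronal markers at 0.87 to 1.10 and 0.50 to 0.86. Their part in the connexin values was not tested.

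**Figure D4:**
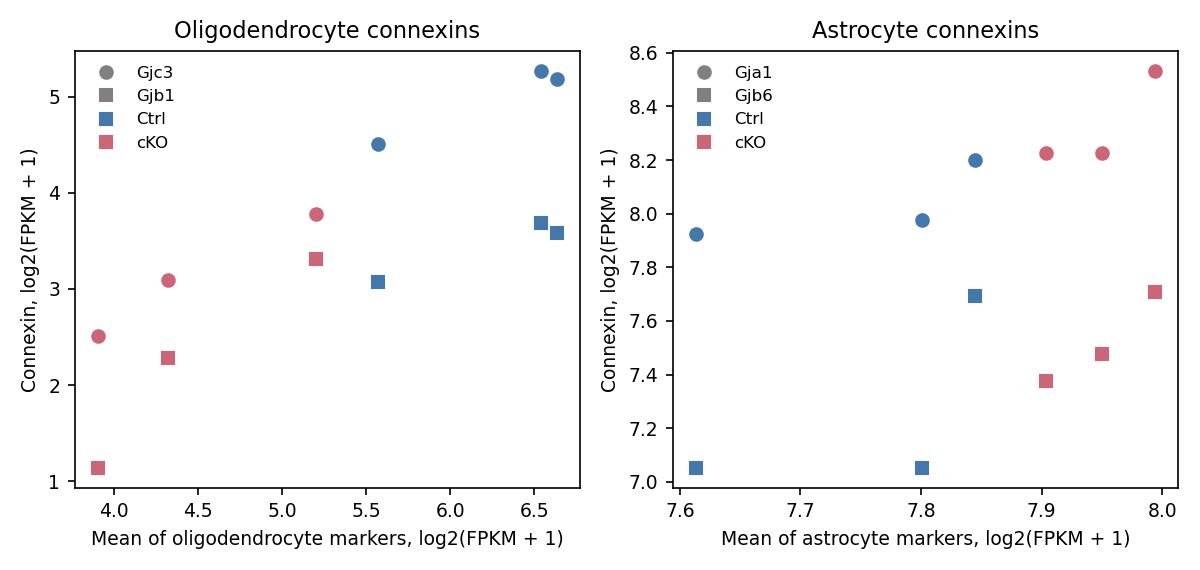
Connexin level against the mean level of cell type markers in 6 units, both as log2(FPKM + 1). Left, Gjc3 (circles) and Gjb1 (squares) against 12 oligodendrocyte markers; right, Gja1 (circles) and Gjb6 (squares) against 12 astrocyte markers; blue is Ctrl and red is cKO. The left axis spans 3.90 to 6.63 and the right axis 7.61 to 7.99, so the scales of the panels differ.

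Across the 6 units, Gjc3 and Gjb1 had a Pearson r of 0.914, and Gja1 and Gjb6 of 0.871. Gja1 and Gjc3 had an r of -0.779. With 6 points that share libraries, markers and genotype, these are descriptions. Among 3958 genes with a mean of at least 10 FPKM, those most like Gjc3 included Tmem88b (r = 0.999) and Ugt8a (r = 0.995). Ugt8a encodes an enzyme of myelin lipid synthesis and is in the oligodendrocyte marker list. For Gjb1 they were Clip3 (r = 0.982), Gyg (r = 0.967) and Polr2b (r = 0.964), none of which is in that list. For Gja1 they included Cd81 (r = 0.996), a tetraspanin, and Lnpep (r = 0.992), an aminopeptidase. For Gjb6 they included Itgb5 (r = 0.987) and Scarna10 (r = 0.984), and for Gjb2 they were Rgma (r = 0.976), Ctsb (r = 0.971) and Foxo3 (r = 0.967). An r above 0.9 was reached by 180 genes for Gjc3, 141 for Gjb6, 88 for Gja1, 69 for Gjb1 and 15 for Gjb2.

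Both pannexins had means below the filter of 1 FPKM, so neither was tested. Panx1, ENSMUSG00000031934, is listed on chromosome 9 at 14913424 to 14956774, minus strand, and encodes the widely expressed pannexin. Its Ctrl units held 0.911, 0.371 and 0.419 FPKM and its cKO units 0.326, 0.00588 and 0.395 FPKM. The groups overlapped. A9 stood apart, with 0 reads in S1 and 2 in S2, below the floor of 3 reads, while the other 10 libraries had 38 to 208 reads. The means were 0.567 ± 0.299 FPKM for Ctrl and 0.242 ± 0.208 FPKM for cKO (SD over 3 units each). Panx2, ENSMUSG00000058441, is listed on chromosome 15 at 88943937 to 88957770, plus strand, and encodes a pannexin known mainly from the nervous system. Its units held 0.780, 0.398 and 0.608 FPKM in Ctrl and 0.635, 0.408 and 0.792 FPKM in cKO, from 20 to 80 reads a library, and the means were 0.596 ± 0.192 and 0.612 ± 0.193 FPKM (SD, n = 3). Panx2 exceeded Panx1 in 10 of 12 libraries, all but S2 of A1 and S1 of A2. Gja1, at 238 to 373 FPKM, exceeded the higher of the pannexins by at least 215-fold in each library.

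Of the other 16 connexin and pannexin genes, 7 were listed at 0 in all 12 libraries, among them Gja3, Gjb5, Gjd2, Gjd3 and Gjd4. Gjd2 encodes the main connexin of electrical synapses between neurons. A count of 0 allows, at 3 reads, between 0.0287 and 0.207 FPKM for these genes, which covers counting error only. A further 7, among them Gja4, Gja5, Gja6, Gja10, Gje1 and Panx3, had means between 0 and 1 FPKM. Of the 2 above that level, Gjc1, a connexin of vascular smooth muscle and of developing tissue, held 1.18, 1.57 and 0.693 FPKM in Ctrl and 0.803, 0.866 and 1.22 FPKM in cKO, with overlap and a log2 fold change of -0.11 (limma adjusted p = 0.975).

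Of 18 genes of gap junction scaffolds and regulation, 17 were in the table and 16 were tested, 7 higher and 9 lower in cKO, 0 past the adjusted threshold and 0 with an unadjusted p under 0.05 (limma), with a median log2 fold change of -0.05. Mapk3, a kinase that phosphorylates the Gja1 product, held 30.3, 29.4 and 18.3 FPKM in Ctrl and 16.6, 18.2 and 23.1 FPKM in cKO (log2 fold change -0.39, limma adjusted p = 0.771). Src, another kinase that acts on it, held 18.6, 25.1 and 23.3 FPKM in Ctrl and 23.8, 25.8 and 25.7 FPKM in cKO (log2 fold change 0.17, limma adjusted p = 0.869). The groups overlapped for both kinases.

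Among 14 genes of ATP release and other large-pore channels, 10 were tested, 6 higher and 4 lower in cKO, 0 past the adjusted threshold and 1, Lrrc8b, with an unadjusted p under 0.05 (limma). The median log2 fold change was 0.03. Lrrc8b, a subunit of the volume-regulated anion channel, had 13.0 ± 6.11 FPKM for Ctrl and 6.22 ± 1.34 FPKM for cKO (SD over 3 units each), with overlapping units and a log2 fold change of -0.86 (limma adjusted p = 0.644). Lrrc8d, another subunit, had a log2 fold change of -0.27 (limma adjusted p = 0.896). Ttyh1, an astrocyte-rich membrane protein, had 203 ± 26.4 FPKM for Ctrl and 229 ± 16.5 FPKM for cKO (SD over 3 units each) and a log2 fold change of 0.18 (limma adjusted p = 0.849).

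S1 and S2 libraries of the same A number gave close values for the abundant members. The median difference between them was 3.03% of the mean for Gja1, 2.35% for Gjb6, 4.30% for Gjc3, 8.54% for Gjb2 and 9.90% for Gjb1, and 18.3% and 15.7% for Panx1 and Panx2. The reads behind a value were 45005 to 106409 a library for Gja1, 460 to 5102 for Gjc3 and 48 to 608 for Gjb1. Of the 5 members tested for S2 against S1, 1 passed the threshold, as did 1.39% of all genes. S2 was the deeper library in every A number, with 28096485 to 35323322 reads against 17311872 to 22025823 in S1. S number and depth can therefore not be told apart in this comparison. Gja1 was lower in S2 in 6 of 6 A numbers, with differences between -0.05 and -0.03 on the log2 scale, a mean of -0.04 and a standard error of 0.0065 (limma adjusted p = 0.0381, A number as a block). The call was lost when any 1 A number was left out, with adjusted p (limma) between 0.0695 and 0.129, and without the block. It held with a pseudocount of 0.1 FPKM (limma adjusted p = 0.0387) and with median-of-ratios scaling (-0.067, limma adjusted p = 0.0032). The Gja1 difference between genotypes was 0.29 in the S1 and 0.29 in the S2 libraries alone, and that of Gjc3 was -1.86 and -1.85.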

How the data were processed

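Adult male mouse hippocampal cells sorted for ACSA-2 gave 12 libraries made with the SMART-Seq V4 kit and read as 125-base pairs, per the labels' protocols. The deposited table holds FPKM made by the authors, and the submitters' processing notes name FastQC, STAR, featureCounts, DESeq2, mm10 and GRCm38. Only 2.77% of 51948 genes with a GENCODE M21 identifier kept their GRCm38 start and end, so gene positions are given as deposited with no build. SMART-Seq libraries do not mark strand, so reads from overlapping antisense genes are not separated. Read counts were worked out from the spacing of low FPKM values (82.8% to 86.3% of values came out whole within 0.01 of a read) and served for depth, for the reads behind a value and for the floor of 3 reads, not for tests. Most recovered counts were even, so 2 reads usually stand for 1 pair.

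FPKM of the 147 symbols on several rows were summed, and the 310 genes with no symbol kept their identifiers. Values were tested as log2(FPKM + 1) with limma 3.58.1 in R 4.3.3 (variance trend, two-sided) on the 17540 genes with a mean of at least 1 FPKM, with Benjamini-Hochberg adjustment over these genes and a threshold of 0.05. S1 and S2 were averaged on the log2 scale. A fold change on that scale understates the change of low genes. Single relative levels used an exact permutation test over 20 arrangements of 6 units, with 0.1 as its smallest p. Nothing in the labels ties an A number to 1 mouse or 1 culture, so p-values measure the spread between these samples, which may be technical. Across genes, S2 minus S1 of 2 A numbers correlated at 0.133 to 0.19, but the S number pairs no Ctrl with a cKO unit. The fits were also run on simulated data in which genes varied independently, to check the size of their estimates. Genes that vary together across units were not simulated, so that run does not vouch for the calls in these data.

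The members, the gene and marker lists and the motifs were chosen with earlier results of these data known. Named genes were the 7 members, other connexins or pannexins with a mean of at least 1 FPKM, the 3 genes with the smallest unadjusted p of each of the 2 pathway lists, and the 3 genes most like each member by Pearson r. Alternatives were another pseudocount (0.1 FPKM), filters, scalings, variance settings, S1 or S2 alone, fits of all libraries, leaving out each A number, and an oligodendrocyte marker covariate. Glialcam, of the scaffold list, was not analysed here, and some genes that the rule selects are not reported here. Python 3.11.15 with numpy 2.4.6, pandas 2.3.3 and scipy 1.17.1 was used.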

Additional observations from a re-analysis of the deposited data

Results flagged for a closer look

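The S2 minus S1 difference of Panx1 in A1 of Ctrl was 0.297 on the log2(FPKM + 1) scale, from 0.715 FPKM (82 reads) in S1 and 1.11 FPKM (208 reads) in S2. In the other 5 A numbers it lay between -0.08 and 0.03. The gap to the next value took 0.726 of the range over 6 A numbers, above Dixon's 95% critical value for 6 values. Of 7 members examined in this way, 1 was singled out, and chance does so for about 1 in 20.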

How the results depend on the processing

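No member passed the threshold for genotype in the test on averages of S1 and S2, under either filter, scaling, pseudocount or variance setting, in S1 or S2 alone, with the covariate or without any single A number. With all 12 libraries and A numbers as random effects, 1 member (Gjc3, -1.86) and 112 genes passed. With the replicate block added, 1 member (Gjc3, -1.86) and 80 genes passed, and no other member's call changed. Those fits count residual degrees of freedom over 12 libraries, although these come from 6 A numbers, and the change in calls was not tested further. Leaving out 1 A number gave 0 members each time and 0 to 1 gene over all, the 1 without A1. The log2 fold change then ranged from 0.19 to 0.38 for Gja1, 0.15 to 0.47 for Gjb6, -0.13 to 0.59 for Gjb2, -1.74 to -0.66 for Gjb1 and -2.18 to -1.55 for Gjc3. Gjb2 was -0.13 without A1 and -0.04 without A9. The oligodendrocyte minus astrocyte connexin difference ranged from -2.27 to -1.44. With the oligodendrocyte marker covariate it was 0.29, Gjb6 was -0.21 and Gjb1 was 0.79. Gjc3 relative to the markers ranged from -0.18 to 0.013, the latter without A8.

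For S2 against S1, 0 members and 22 genes passed without the A number as a block, where Gja1 was -0.04 as before. Without any single A number, 0 members and 152 to 180 genes passed, and Gja1 ranged from -0.042 to -0.038. With median-of-ratios scaling Gja1 was -0.067 and still passed, and Gjb6 was -0.022. Without single A numbers Gjb6 ranged from -0.0041 to 0.015, below 0 without A2 or A4. Gjc3 ranged from -0.039 to 0.021, above 0 without A8, A4 or A10. These 2 members differed between S1 and S2 by less than the spread over A numbers. Depth limits the pannexins most: Panx1 rests on 0 to 208 and Panx2 on 20 to 80 reads a library, and 3 units a group limit every genotype test.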

Other observations

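Of 14 listed genes below the filter with a value above 0, the units of the groups did not overlap for 4, Gja4, Gja6, Best1 and Lrrc8e, which were singled out after their values were seen. Of all 15855 such genes, 5.92% did not overlap. Gja4, a connexin of arterial endothelium, held 0.227, 0.153 and 0 FPKM in A1, A2 and A8 of Ctrl and 1.23, 1.25 and 0.799 FPKM in A4, A9 and A10 of cKO. With no filter on low values its log2 fold change was 0.89 (limma adjusted p = 0.573). The mean log2 level of endothelial markers was 0.66 to 2.94 in Ctrl and 0.81 to 2.56 in cKO. That of mural markers was 2.85 to 3.43 in Ctrl and 3.19 to 3.73 in cKO. The part of these cell types in the Gja4 values was not tested. Gja6, another connexin gene, lay the other way, with 0.550, 0.359 and 0.245 FPKM in Ctrl and 0.0731, 0 and 0.189 FPKM in cKO (log2 fold change -0.35, limma adjusted p = 0.787 with no filter).

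Best1, an anion channel linked to release of transmitters from astrocytes, held 0.977, 1.81 and 2.27 FPKM in Ctrl and 0.227, 0 and 0.288 FPKM in cKO. With no filter its log2 fold change was -1.17 (limma adjusted p = 0.581). Lrrc8e, a subunit of the volume-regulated anion channel, was listed at 0 in every Ctrl library and at 0.0452 to 0.372 FPKM in the cKO units (limma adjusted p = 0.820 with no filter). The lowest of these values, 0.0452 FPKM in A4, rests on only a few reads a library. The same holds for the 0.0731 FPKM of Gja6 in A4.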
